A study of Mus musculus with 11 samples.

Results

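The 8 genes described here carry elongation factor names: they encode eEF1A, the subunits of its exchange factor, eEF2, the kinase that restrains eEF2, and Eef1e1, which is named for its likeness to that family. They were chosen by name, with earlier results of these data known, and all 8 were found among the 55487 genes of the deposited tables: Eef1a1, Eef1a2, Eef1b2, Eef1d, Eef1g, Eef1e1, Eef2 and Eef2k. RNA from gastrocnemius muscle of 11 mice had been sequenced with a 3' tag kit (QuantSeq 3' mRNA FWD, whose reads start close to the poly(A) tail). The double knockout group held 4 mice with inducible loss of Raptor and mTOR, the Raptor knockout group held 3 mice with inducible loss of Raptor alone, and the wild-type group held 4 mice. Raptor (Rptor) is the subunit that sets mTOR complex 1 apart, and the catalytic subunit mTOR (Mtor) serves both mTOR complexes. In both knockouts the deletion rested on floxed alleles and a Cre recombinase joined to a mutated oestrogen receptor domain, driven by the human skeletal actin promoter and therefore active in myofibres and not in the other cells of the muscle. All 3 groups carry the label of tamoxifen treatment, which began at 3 months of age and was given in chow for 7 weeks, and muscles were taken 7 months after its start. Whether the wild-type mice carried floxed alleles or the Cre transgene is not given in the sources used here.

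During elongation, eEF1A bound to GTP delivers each aminoacyl-tRNA to the ribosome, the eEF1B complex recharges eEF1A with GTP, and eEF2 then moves the ribosome along by 1 codon. Mammals have a pair of eEF1A paralogs: Eef1a1 is expressed in most tissues and in developing muscle, and Eef1a2 takes its place in mature skeletal muscle, heart and neurons. eEF2 kinase (Eef2k) phosphorylates eEF2 and slows elongation, and mTOR complex 1 signalling holds that kinase in check. Transcripts of many elongation factors and of the ribosomal proteins belong to the terminal oligopyrimidine class, whose translation depends on mTOR complex 1.

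The promoter windows of the 3 genes with the highest mean counts over all libraries are shown because their transcripts rose by different amounts. Windows came from RefSeq on GRCm38.p6 and span 250 bases before to 50 bases after the annotated start, read 5′ to 3′ on the gene's strand. Of the 8 genes, 6 had a window there. Capitals mark matches on either strand to the motif TATATAA, to the shorter motif TATAAA, to the cyclic AMP response element TGACGTCA and to the pyrimidine run CTCTTCC, which was chosen after the windows had been read.
Eef1a1: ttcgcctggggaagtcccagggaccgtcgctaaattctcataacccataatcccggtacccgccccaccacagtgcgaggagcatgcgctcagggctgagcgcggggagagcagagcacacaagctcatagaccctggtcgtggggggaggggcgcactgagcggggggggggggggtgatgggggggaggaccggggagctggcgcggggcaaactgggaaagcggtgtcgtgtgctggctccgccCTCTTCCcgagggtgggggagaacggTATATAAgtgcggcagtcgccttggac
Eef1a2: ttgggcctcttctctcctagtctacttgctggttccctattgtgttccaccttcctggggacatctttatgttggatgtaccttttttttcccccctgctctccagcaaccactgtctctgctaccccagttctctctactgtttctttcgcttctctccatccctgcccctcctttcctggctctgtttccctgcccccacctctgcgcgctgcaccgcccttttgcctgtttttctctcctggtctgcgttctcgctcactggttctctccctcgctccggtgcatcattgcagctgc
Eef2: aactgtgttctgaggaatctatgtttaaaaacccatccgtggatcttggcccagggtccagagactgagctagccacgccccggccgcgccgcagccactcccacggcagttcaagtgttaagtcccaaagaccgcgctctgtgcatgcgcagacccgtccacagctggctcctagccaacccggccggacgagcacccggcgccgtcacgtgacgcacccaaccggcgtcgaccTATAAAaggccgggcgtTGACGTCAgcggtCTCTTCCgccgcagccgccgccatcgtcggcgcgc

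The Eef1a1 window (chr9:78481675-78481974, minus strand) held TATATAA, which began 24 bases after the annotated start and occurred in 3.24% of the 32851 windows. It also held CTCTTCC, which occurred in 11.2% of windows. The Eef2 window (chr10:81176381-81176680, plus strand) held CTCTTCC as well. It also held TATAAA, found in 13.6% of windows, and the response element TGACGTCA, found in 1.79%. The Eef1a2 window (chr2:181156966-181157265, minus strand) held none of the 4 motifs. It was instead rich in C and T along its whole length, which made up 75.7% of its bases, against 40.3% in the Eef1a1 window and 53.0% in the Eef2 window. Its longest unbroken run of C and T was 17 bases, a length reached by 6.39% of all windows. Among the windows not shown, CTCTTCC also occurred for Eef2k, which fell in the knockouts. It did not occur for Eef1b2, which rose, or for Eef1e1. These matches describe the letters of the windows, and no binding was measured. A link between the motifs and the levels was not tested.

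Library totals ran from 2791339 to 3536731 counts in double knockouts, from 3223797 to 3764879 in Raptor knockouts and from 3134575 to 6328533 in wild types. Double knockout replicates 3 and 4 came from a smaller sequencing run and the other 9 libraries from a larger one. Rptor measured 4.07 to 5.37 CPM (counts-per-million) in double knockouts and 3.85 to 4.99 in Raptor knockouts, against 8.57 to 10.6 in wild types, while Mtor was at 31.8 to 39.5 CPM in double knockouts and 18.2 to 22.6 in Raptor knockouts, against 15.2 to 28.2 in wild types. A 3' tag can lie outside a deleted part, so these values do not check the loss of Mtor. Wild-type replicate 4 differed most from the rest of its group, with a chi-square per degree of freedom over genes of 33.9 to 39.8 against the other wild types, which differed among themselves by 7.70 to 16.5. Raptor knockout replicate 2 differed from the other Raptor knockouts by 21.6 and 22.3, against 3.04 between those. Xist was above 10 CPM in 3 double knockout libraries, 0 Raptor knockout libraries and 1 wild-type library. Ddx3y was above 10 CPM in 1 double knockout, 3 Raptor knockout and 3 wild-type libraries. The knockout genotypes thus differed in these sex-linked genes, and the labels give no sex. The 8 myofibre markers were present in every group, with summed levels of 87566 to 109121 CPM in double knockouts, 87041 to 97512 in Raptor knockouts and 89612 to 112201 in wild types. By edgeR, Acta1, Myh1 and Des rose and Myh4 and Tnnt3 fell in both knockouts, so the sums cover members that moved in both directions. In whole muscle, fewer cells of a type and less RNA per cell cannot be told apart.

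Both eEF1A paralogs rose in the knockouts, with the larger fold change for Eef1a1. Eef1a1 was 4.73-fold higher in double knockouts and 4.20-fold higher in Raptor knockouts than in wild types, while Eef1a2 was 1.71-fold and 1.72-fold higher. Eef2 and Eef1b2 also rose in both knockouts and Eef2k fell, whereas Eef1d, Eef1g and Eef1e1 did not pass the test in either. All CPM values below are scaled by TMM (trimmed mean of M values), and adjusted p-values are from edgeR's quasi-likelihood test with Benjamini-Hochberg adjustment over 10505 tested genes, called under 0.05. All 8 genes passed the filter on low counts.

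**Figure D1:**
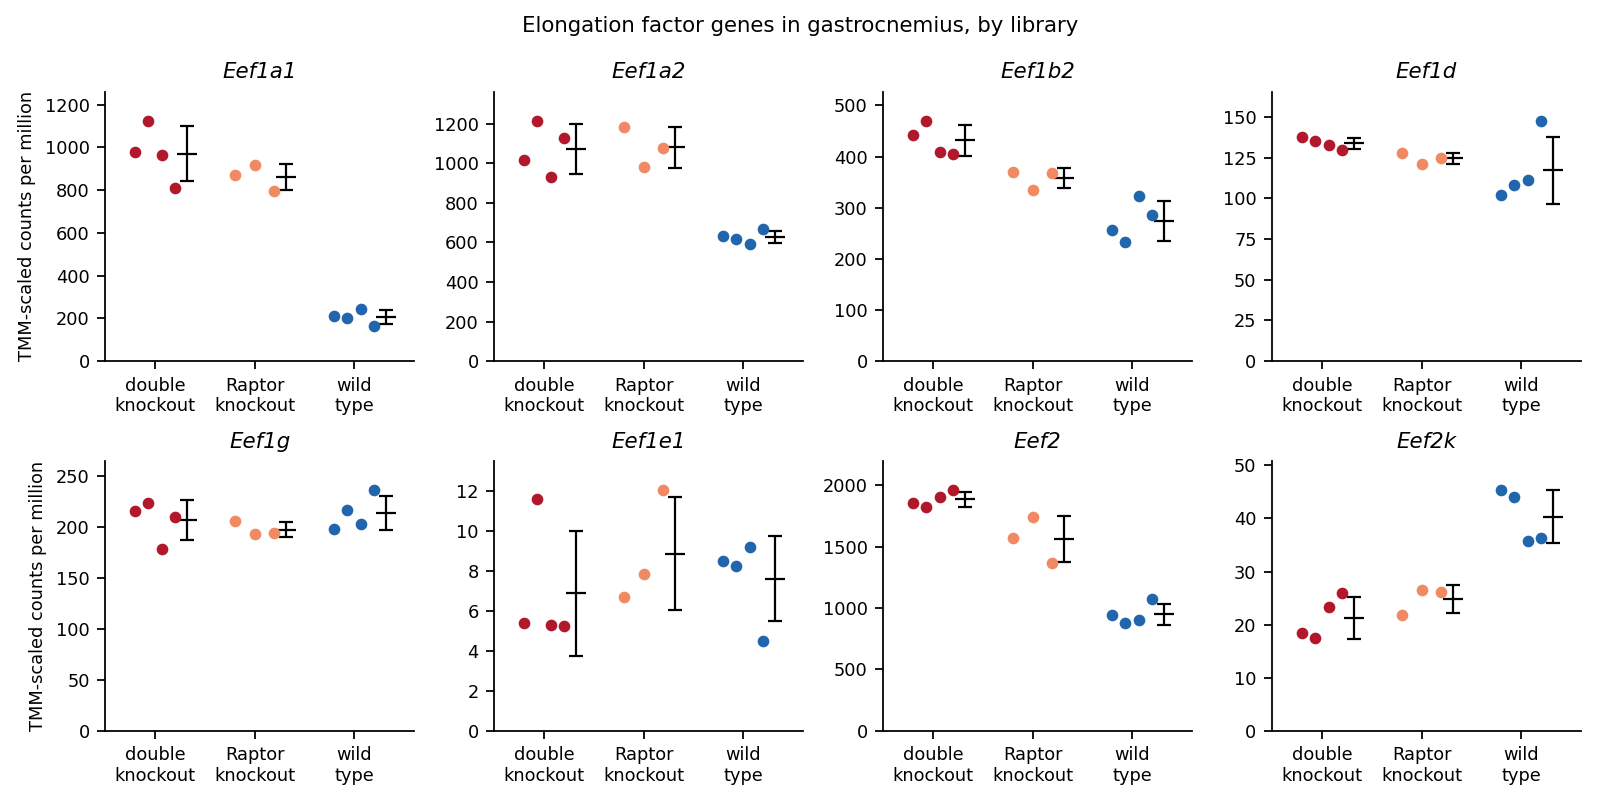
TMM-scaled CPM of the 8 genes, with 1 point per library for the 4 double knockouts, 3 Raptor knockouts and 4 wild types, and the mean ± SD beside the points. The knockout libraries of Eef1a1 lie between 797 and 1126 CPM, all above the wild-type libraries at 166 to 243 CPM, and Eef2k is the gene whose knockout libraries all lie below the wild types.

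Eef1a1 (chr9:78478449-78489151, minus strand) measured 980.1, 1126, 966 and 810.2 CPM in the 4 double knockouts and 869, 917 and 797 CPM in the 3 Raptor knockouts, against 209.6, 202, 243 and 166 CPM in the 4 wild types. Every knockout library was above every wild-type library, and the knockout genotypes overlapped each other. The log2 fold change was 2.24 ± 0.14 (SE) in double knockouts (adjusted p = 6.22e-08), the gene with the fifth smallest p of all those tested. In Raptor knockouts it was 2.07 ± 0.15 (adjusted p = 3.93e-07). Among all tested genes, 99.2% had a lower log2 fold change than Eef1a1 in each of these comparisons, which share the wild-type libraries.

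Eef1a2 (chr2:181147653-181157014, minus strand) measured 1019, 1216, 929 and 1130.2 CPM in double knockouts and 1186, 979 and 1080.2 CPM in Raptor knockouts, against 631, 619, 594 and 666 CPM in wild types. Its knockout libraries again all lay above the wild types, by a smaller step. On the log2 scale this was 0.77 ± 0.12 in double knockouts (edgeR adjusted p = 0.000144) and 0.79 ± 0.13 in Raptor knockouts (edgeR adjusted p = 0.000421).

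The balance of the paralogs lay closer to Eef1a1 in every knockout library than in any wild type. The exact test of the ratio did not pass 0.05 after adjustment. With these group sizes it could not have passed whatever the values, so that outcome does not bear on the difference. The number of Eef1a1 counts for each Eef1a2 count, which needs no scaling between libraries, was 0.962, 0.925, 1.04 and 0.717 in double knockouts and 0.733, 0.937 and 0.738 in Raptor knockouts, against 0.332, 0.326, 0.409 and 0.249 in wild types. Each knockout library had a higher ratio than each wild-type library, and 1 library, double knockout replicate 3, had more Eef1a1 than Eef1a2 counts. Expressed as a share of the counts of both genes, Eef1a1 made up 47.5% ± 4.0 (SD, n = 4) in double knockouts and 44.4% ± 3.5 (n = 3) in Raptor knockouts, against 24.6% ± 3.7 (n = 4) in wild types. For single libraries this share ran from 41.8% to 51.0%, from 42.3% to 48.4% and from 19.9% to 29.0% in those groups. The widest 95% Wilson interval, that of wild-type replicate 2, reached from 22.9% to 26.4%. Each interval was computed within 1 library, so it leaves out the spread between mice. The deposited tables carry no molecular identifiers, so repeated reads of a molecule were counted separately and the intervals may be too narrow even for counting error.

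On the log2 scale the ratio was -0.15 ± 0.23 (SD, n = 4) in double knockouts and -0.33 ± 0.20 (n = 3) in Raptor knockouts, against -1.63 ± 0.29 (n = 4) in wild types. The double knockouts exceeded the wild types by 1.48 ± 0.19 (SE), a 2.79-fold higher ratio (two-sided exact permutation p = 0.0286, the smallest that 4 against 4 libraries can give, and 0.0857 after adjustment over the 3 comparisons). The Raptor knockouts exceeded the wild types by 1.3 ± 0.20, a 2.46-fold higher ratio (exact permutation p = 0.0571, again the smallest possible with 3 against 4, adjusted p = 0.0857). The double and Raptor knockouts differed by 0.18 ± 0.17 (exact permutation p = 0.457) and their libraries overlapped. Without wild-type replicate 4, the differences of the double and Raptor knockouts to wild type were 1.35 and 1.17. Within the larger sequencing run alone the 3 differences were 1.54, 1.3 and 0.24, with exact permutation p = 0.133, 0.0571 and 0.400, and 2 double knockout libraries in that run cannot reach 0.05.

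**Figure D2:**
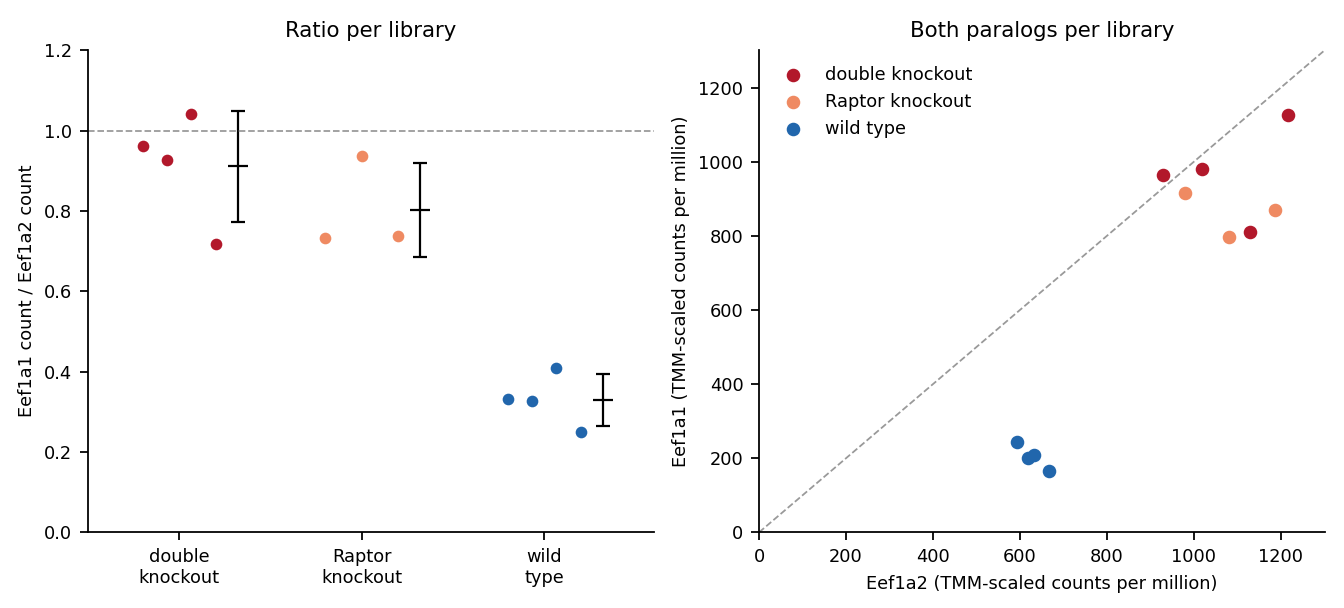
Left, the ratio of Eef1a1 to Eef1a2 counts in each library, with the mean ± SD of each genotype and a dashed line at equal counts. Right, Eef1a1 against Eef1a2 in TMM-scaled CPM, 1 point per library, where the 7 knockout libraries lie near the dashed line of equal levels and the 4 wild-type libraries lie well under it.

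The summed level of both paralogs was also higher in every knockout library. It was 1999, 2342, 1894 and 1940.4 CPM in double knockouts and 2055, 1896 and 1877 CPM in Raptor knockouts, against 841, 821, 838 and 832 CPM in wild types. The wild-type sums lay close together (832.8 ± 9.0 CPM, SD, n = 4) although the ratio within them varied from 0.249 to 0.409. Wild-type replicate 4 had the lowest Eef1a1 and the highest Eef1a2 of its group, and wild-type replicate 3 the reverse.

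Counting near the 3' end of Eef1a1 bears on its level. A 108-base record annotated as a miRNA gene, Gm26377 (chr9:78478528-78478635, same strand), lies wholly within the 3' end of Eef1a1 and took 4826 counts over the 11 libraries, and reads from these genes cannot be told apart by position. Gm26377 held 14.7% to 17.5% of the counts of Eef1a1 and Gm26377 together in double knockouts and 13.9% to 14.98% in Raptor knockouts, against 11.1% to 16.3% in wild types. With Gm26377 and its near-identical records added to Eef1a1, an alternative chosen after seeing the data, the ratio to Eef1a2 was 1.09 ± 0.17 in double knockouts and 0.941 ± 0.132 in Raptor knockouts, against 0.386 ± 0.083 in wild types (SD). The difference between double knockouts and wild types was then 1.51 on the log2 scale, and that between Raptor knockouts and wild types was 1.3. Processed copies of Eef1a1 elsewhere in the genome, 18 of them, held at most 0.0689% of the summed counts in any library. No pair of the 8 genes was matched in their transcripts, in a search with looser limits than 90% identity over 200 bases. Stretches too short or too unlike for that search to find would have been missed, so its empty result does not show that the paralogs are unlike.

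The 3 subunits of the exchange complex did not move together. Eef1b2 (chr1:63176825-63180486, plus strand), the catalytic alpha subunit that swaps GDP for GTP on eEF1A, measured 441, 470.3, 409 and 406 CPM in double knockouts and 370.5, 335 and 368 CPM in Raptor knockouts, against 256, 232, 322 and 285 CPM in wild types. The groups formed 3 steps without overlap, with double knockouts highest. Its log2 fold change was 0.66 ± 0.12 in double knockouts (edgeR adjusted p = 0.000761) and 0.39 ± 0.13 in Raptor knockouts (edgeR adjusted p = 0.048). The call in Raptor knockouts was lost on leaving out any of 7 libraries: edgeR adjusted p = 0.0768 and 0.0619 without double knockout replicates 1 and 3, 0.162, 0.0587 and 0.149 without Raptor knockout replicates 1, 2 and 3, and 0.0877 and 0.103 without wild-type replicates 1 and 2.

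Eef1d (chr15:75894205-75909556, minus strand), the delta subunit with a second exchange activity, measured 138, 135, 133 and 130 CPM in double knockouts and 128, 121 and 125 CPM in Raptor knockouts, against 102, 108, 111 and 148 CPM in wild types. Wild-type replicate 4 was above all knockout libraries and the other 3 wild types were below them all. By the test it differed by a log2 fold change of 0.19 ± 0.13 in double knockouts (edgeR adjusted p = 0.301) and 0.09 ± 0.14 in Raptor knockouts (edgeR adjusted p = 0.711). Without wild-type replicate 4, Eef1d passed the test in double knockouts at 0.32 (edgeR adjusted p = 0.0161). Eef1d shares 277 bases with Naprt on the same strand, a gene with 80 counts over all libraries.

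Eef1g (chr19:8967041-8978479, plus strand), the gamma subunit that holds the exchange complex together, measured 215, 223, 178 and 209 CPM in double knockouts and 206, 192 and 193 CPM in Raptor knockouts, against 198, 216, 203 and 236 CPM in wild types. All groups overlapped. The log2 fold change was -0.05 ± 0.11 in double knockouts (edgeR adjusted p = 0.794) and -0.11 ± 0.12 in Raptor knockouts (edgeR adjusted p = 0.574). Scaled by library totals in place of TMM it was 0.19 and 0.09, so the sign of these small differences depends on the scaling.

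Eef1e1 (chr13:38644207-38659058, minus strand), named for its likeness to elongation factor subunits, encodes an auxiliary protein of the multi-tRNA synthetase complex also called AIMP3. It was scarce, at 5.37, 11.6, 5.30 and 5.23 CPM in double knockouts and 6.67, 7.85 and 12.0 CPM in Raptor knockouts, against 8.51, 8.22, 9.21 and 4.51 CPM in wild types. The libraries of all groups were interleaved. The log2 fold change was -0.14 ± 0.31 in double knockouts (edgeR adjusted p = 0.772) and 0.21 ± 0.33 in Raptor knockouts (edgeR adjusted p = 0.711), and its standard errors were the largest of the 8 genes.

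Eef2 and its kinase moved in opposite directions. Eef2 (chr10:81176631-81182498, plus strand), the translocase, measured 1857, 1821, 1906 and 1960 CPM in double knockouts and 1570, 1741 and 1366 CPM in Raptor knockouts, against 943, 875, 906 and 1070.5 CPM in wild types. The 3 genotypes did not overlap, with double knockouts highest and wild types lowest. This came to a log2 fold change of 0.99 ± 0.11 in double knockouts (edgeR adjusted p = 1.22e-05), a 1.99-fold higher level, and 0.72 ± 0.12 in Raptor knockouts (edgeR adjusted p = 0.0007), a 1.64-fold higher level.

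Eef2k (chr7:120842831-120907450, plus strand) measured 18.3, 17.5, 23.3 and 25.9 CPM in double knockouts and 21.8, 26.5 and 26.1 CPM in Raptor knockouts, against 45.3, 44.0, 35.7 and 36.3 CPM in wild types. All knockout libraries lay below all wild types. Its fold change on the log2 scale was -0.92 ± 0.16 in double knockouts (edgeR adjusted p = 0.000626), a 1.89-fold lower level, and -0.70 ± 0.18 in Raptor knockouts (edgeR adjusted p = 0.012). The ratio of Eef2 to Eef2k counts was 101, 104, 81.7 and 75.8 in double knockouts and 72.04, 65.6 and 52.3 in Raptor knockouts, against 20.8, 19.9, 25.4 and 29.5 in wild types, so the lowest knockout library stood above the highest wild type. The fall of Eef2k did not pass on the deposited TPM (transcripts-per-million) values by limma, with adjusted p = 0.0955 in double knockouts and 0.525 in Raptor knockouts. For this gene 1 CPM corresponded to 0.121 to 0.230 TPM across libraries, a 1.91-fold range, against a range of 1.29-fold for Eef1a1. That conversion followed genotype: it was 0.121 to 0.140 in wild types and 0.144 to 0.230 in knockouts, without overlap. A fall in CPM was therefore smaller in TPM, and the reason for the shift was not tested. In Raptor knockouts the call was also lost with library totals in place of TMM (-0.50, edgeR adjusted p = 0.0504) and without Raptor knockout replicate 1 (edgeR adjusted p = 0.0763).

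**Figure D3:**
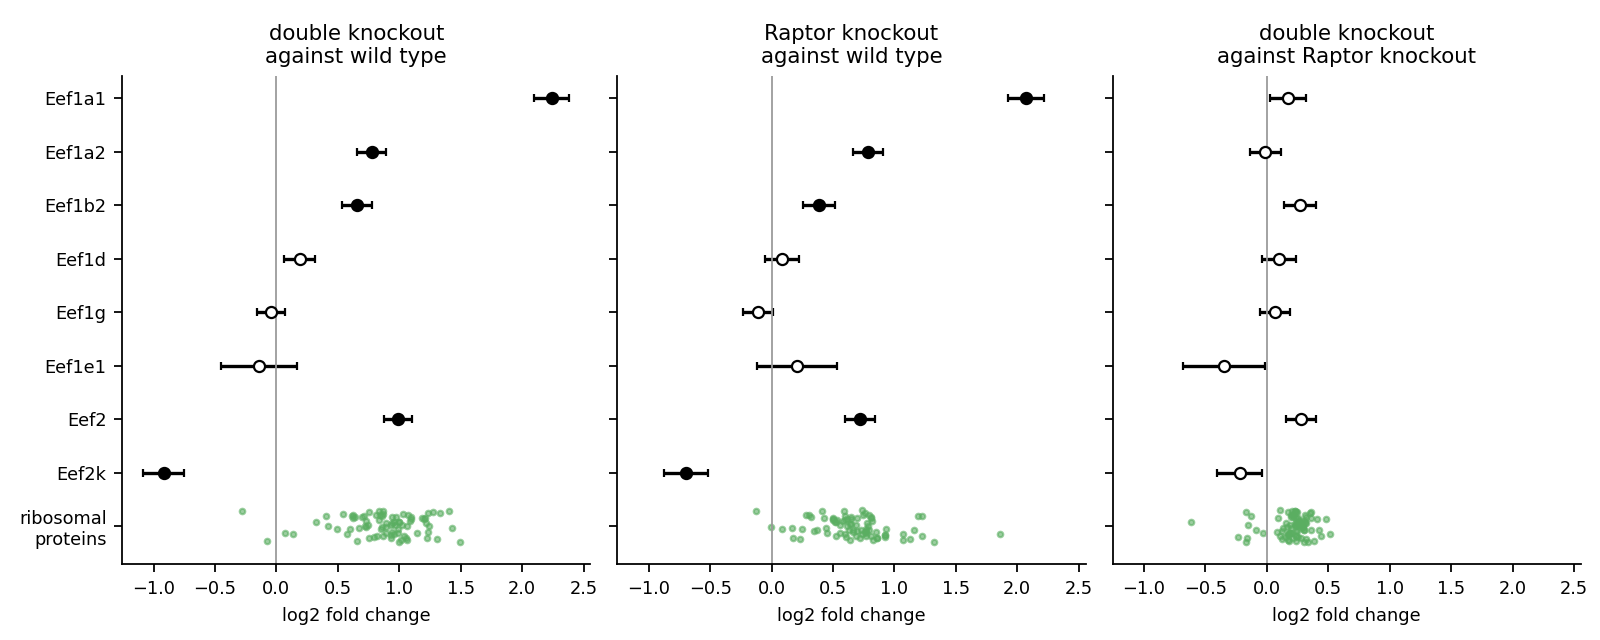
Log2 fold changes with their standard errors for the 8 genes in the 3 comparisons, filled where the edgeR adjusted p was under 0.05, above the log2 fold changes of the 81 tested ribosomal protein genes (green points, 1 per gene, spread vertically for clarity). Eef1a1 lies to the right of every ribosomal protein gene in both comparisons with wild type, at 2.24 and 2.07.

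Of the 8 genes, 4 rose and 1 fell in double knockouts against wild types, where 13% of all tested genes rose, 13.7% fell and 26.7% were called in all. In Raptor knockouts against wild types 4 rose and 1 fell as well, where 8.73% of tested genes rose, 9.43% fell and 18.2% were called in all. That background moved with single libraries: 556 genes rose and 584 fell in Raptor knockouts without Raptor knockout replicate 1, and 597 rose and 627 fell without Raptor knockout replicate 3, against 917 and 991 with all libraries. The same libraries of wild type served both comparisons. The median log2 fold change over the 8 genes was 0.42 in double knockouts and 0.30 in Raptor knockouts, beside 0.02 and 0.00 over all tested genes. In both comparisons 5 of the 8 had groups without overlap, 4 with all knockout libraries above and 1 with all below. Among all tested genes, 13.1% lay wholly above and 13.6% wholly below in double knockouts, and 14% and 13.2% in Raptor knockouts. Within the larger sequencing run, the log2 fold changes in double knockouts were 2.36 for Eef1a1, 0.83 for Eef1a2, 0.73 for Eef1b2, 0.95 for Eef2 and -1.17 for Eef2k, all called.

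Between the knockout genotypes edgeR called 0 of the 8 genes, where 0.00952% of tested genes were higher, 0.019% lower and 0.0286% called in either direction. That background rested on 1 higher and 2 lower genes. It was 27 and 70 without wild-type replicate 4, 16 and 12 without wild-type replicate 3, and 9 and 18 without Raptor knockout replicate 2, and it was 0 to 2 in each direction without any other single library. DESeq2 and limma also called 0 of them. At an unadjusted threshold of 0.05, edgeR's quasi-likelihood test had 1 of them, Eef2, whose adjusted p was 0.502. By the same test 997 of the 10505 tested genes passed that threshold. DESeq2 and limma on TPM each had 2 of the 8 higher and 0 lower there. The log2 fold changes of double against Raptor knockouts were 0.27 ± 0.12 for Eef2, 0.27 ± 0.13 for Eef1b2, 0.17 ± 0.15 for Eef1a1, 0.10 ± 0.14 for Eef1d and 0.07 ± 0.12 for Eef1g. They were -0.01 ± 0.13 for Eef1a2, -0.22 ± 0.18 for Eef2k and -0.35 ± 0.34 for Eef1e1. Eef1b2, Eef1d and Eef2 had every double knockout library above every Raptor knockout library, as did 5.18% of all tested genes, and none of the 8 had every library below, as 7.03% of tested genes did. Xist was above 10 CPM in 3 double knockout and 0 Raptor knockout libraries. With Xist as a covariate, the log2 fold changes between the knockouts were 0.097 for Eef1b2, 0.12 for Eef1d and 0.34 for Eef2.

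Ribosomal protein genes, whose transcripts share the terminal oligopyrimidine class with many elongation factors, give a scale for these changes. Of 81 tested, 74 rose and 0 fell in double knockouts (edgeR, with a median log2 fold change of 0.93), and 65 rose and 0 fell in Raptor knockouts (median 0.67). None of the 81 was lower at an unadjusted p under 0.05 in either comparison, and DESeq2 and limma called 0 lower. Among the 10505 tested genes, edgeR had 3985 under that threshold in double knockouts and 3333 in Raptor knockouts, in either direction. The log2 fold change of Eef1a1 was above all 81 in both comparisons, and that of Eef2 was above 52 of them in double knockouts and 45 in Raptor knockouts. Eef1a2 was above 25 in double knockouts and 58 in Raptor knockouts. Eef1d was above 4 and 2 of the 81, and Eef1g above 2 and 1. Between double and Raptor knockouts 0 of the 81 were called, with a median log2 fold change of 0.23. At an unadjusted p under 0.05, 21 were higher by edgeR, 35 by DESeq2 and 50 by limma on TPM, and 0 were lower by any. The differences between single elongation factors and the ribosomal proteins are a description and were not tested.

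Per transcript length, in the authors' TPM, the order of the 8 genes differed by genotype: Eef1a1 stood above Eef1d and Eef1g in knockouts and below them in wild types, and Eef2 and Eef1a2, whose ranges overlapped, changed places in Raptor knockouts. In double knockouts the order was Eef1b2 (652 ± 60 TPM, SD, n = 4), Eef2 (595 ± 36), Eef1a1 (537 ± 78) and Eef1a2 (506 ± 38), neighbours whose ranges overlapped, then Eef1d (202 ± 16), Eef1g (164 ± 15), Eef2k (3.89 ± 0.17) and Eef1e1 (2.61 ± 1.10). In Raptor knockouts it was Eef1b2 (522 ± 19, n = 3), Eef1a2 (493 ± 36), Eef2 (475 ± 65) and Eef1a1 (460 ± 39), again with overlapping neighbours, then Eef1d (181 ± 1), Eef1g (151 ± 3), Eef2k (4.64 ± 0.95) and Eef1e1 (3.58 ± 1.04). In wild types Eef1b2 came first (371 ± 69, n = 4), then Eef2 (267 ± 15) and Eef1a2 (266 ± 6) with overlapping ranges. Eef1d (156 ± 20) and Eef1g (151 ± 6) overlapped each other and stood above Eef1a1 (102 ± 22), which was sixth, followed by Eef2k (5.28 ± 0.73) and Eef1e1 (2.65 ± 0.85). A 3' tag yields about 1 read site per transcript whatever its length, so TPM divides by a length that the counts do not depend on. The order by CPM put Eef2 first in all groups. By CPM, the wild-type libraries of Eef1a1 (166 to 243) lay above those of Eef1d (102 to 148) and overlapped those of Eef1g (198 to 236). The place of Eef1a1 below these genes in wild types therefore depends on the division by length.

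**Figure D4:**
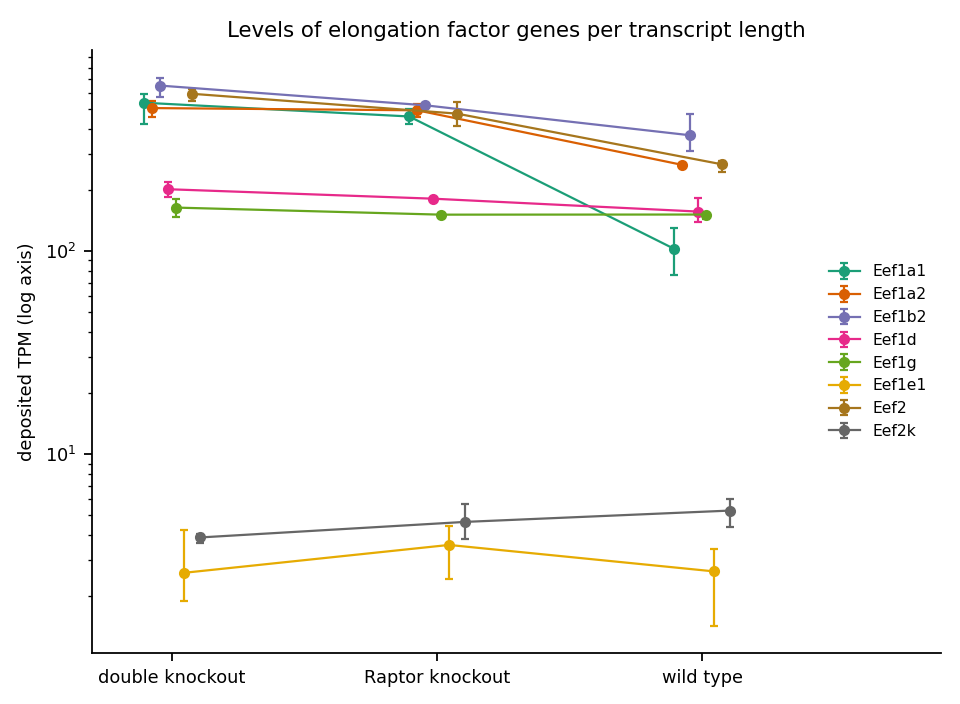
Mean deposited TPM of each gene by genotype on a log axis, with bars from the lowest to the highest library. Eef1a1 joins the upper group of 4 genes in both knockouts and lies below Eef1d and Eef1g in wild types, at 102 TPM. By CPM, wild-type Eef1a1 lay above Eef1d and overlapped Eef1g.

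Genes that modify the elongation factors were called in both directions. Of 12 tested modifiers, 1 rose and 1 fell in double knockouts by edgeR, where 26.7% of all tested genes were called, and 2 rose and 0 fell in Raptor knockouts, where 18.2% were called. The median log2 fold changes were 0.15 and 0.33. In double knockouts limma had 2 higher and 0 lower, and in Raptor knockouts DESeq2 and limma called 0 lower. At an unadjusted p under 0.05, edgeR had 5 higher and 1 lower in Raptor knockouts, where 3333 of the 10505 tested genes passed in either direction. Eef1akmt4, a lysine methyltransferase of eEF1A, averaged 5.66 ± 1.56 CPM in double knockouts and 5.01 ± 2.30 in Raptor knockouts, against 1.98 ± 0.80 in wild types (edgeR adjusted p = 0.00722 and 0.0348), a low level at a locus annotated as overlapping another gene. Eef2kmt, a methyltransferase of eEF2, rose in Raptor knockouts to 19.8 ± 3.2 CPM, against 12.6 ± 1.3 in wild types (edgeR adjusted p = 0.0165), and was at 15.2 ± 1.2 in double knockouts. Dph3, which takes part in building diphthamide on eEF2, fell in double knockouts to 52.0 ± 5.2 CPM, against 71.8 ± 9.5 in wild types (edgeR adjusted p = 0.0195).

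A list of cytosolic factors for elongation, termination and ribosome rescue also held Tpt1, which is not named as such a factor. Of its 11 tested genes, 2 rose and 1 fell in double knockouts (median log2 fold change -0.07). In Raptor knockouts 1 rose, which was Tpt1, and 1 fell (median 0.09). These shares were close to the 26.7% and 18.2% called over all tested genes. By limma on TPM 0 were lower in either comparison. Tpt1, the translationally controlled tumour protein, rose to 4677 ± 255 CPM in double knockouts and 3969 ± 250 in Raptor knockouts, against 2553 ± 189.5 in wild types (edgeR adjusted p = 1.82e-05 and 0.000945). Etf1, the release factor that recognises stop codons, fell to 41.0 ± 5.9 and 41.6 ± 0.9 CPM in those knockouts, against 61.7 ± 4.3 in wild types (edgeR adjusted p = 0.00451 and 0.0141). Abcf3, an ATP-binding cassette protein, rose in double knockouts to 17.2 ± 1.7 CPM, against 11.1 ± 1.8 in wild types (edgeR adjusted p = 0.0109).

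Among the mitochondrial counterparts, 0 of 10 tested rose and 1 fell in double knockouts by edgeR (median log2 fold change -0.23), where 26.7% of all tested genes were called. At an unadjusted p under 0.05 edgeR had 0 higher and 2 lower, where 3985 of the 10505 tested genes passed in either direction. DESeq2 also had 0 higher and 1 lower, and limma called 0. In Raptor knockouts, where 18.2% of tested genes were called, edgeR, DESeq2 and limma each called 0 (median 0.01). There edgeR had 0 at an unadjusted p under 0.05, where 3333 of the 10505 tested genes passed. Gfm2, which recycles mitochondrial ribosomes, fell in double knockouts to 20.5 ± 1.0 CPM, against 28.1 ± 4.2 in wild types (edgeR adjusted p = 0.0384). Gfm1 and Tufm, the mitochondrial counterparts of eEF2 and eEF1A, differed between Raptor knockouts and wild types by 0.35 ± 0.17 and 0.17 ± 0.22 on the log2 scale (edgeR adjusted p = 0.16 and 0.634).

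Partners of Eef1e1 and of the eEF1 complex went both ways. Of 11 tested, 3 rose and 2 fell in double knockouts (median log2 fold change -0.16), and 2 rose and 1 fell in Raptor knockouts (median -0.15). Over all tested genes 13% rose and 13.7% fell in double knockouts, and 8.73% rose and 9.43% fell in Raptor knockouts. Kars, the lysyl-tRNA synthetase, rose to 129 ± 13 CPM in double knockouts and 128 ± 6 in Raptor knockouts, against 78.4 ± 5.5 in wild types (edgeR adjusted p = 0.000381 and 0.00127). Vars, the valyl-tRNA synthetase that binds the eEF1 complex, rose to 13.3 ± 2.1 and 14.2 ± 3.2 CPM in those knockouts, against 7.81 ± 0.63 in wild types (edgeR adjusted p = 0.00928 and 0.00919). Mars, the methionyl-tRNA synthetase, fell to 31.5 ± 2.8 and 32.3 ± 6.0 CPM, against 49.4 ± 8.2 in wild types (edgeR adjusted p = 0.00753 and 0.0248). Qars, the glutaminyl-tRNA synthetase, rose in double knockouts to 71.7 ± 10.7 CPM, against 46.8 ± 6.3 in wild types (edgeR adjusted p = 0.00461).

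Between double and Raptor knockouts edgeR called 0 genes of each of these 4 lists, as did DESeq2 and limma. At an unadjusted p under 0.05, edgeR had 1 lower in each of the first 3 lists and 0 among the partners of Eef1e1, where 997 of the 10505 tested genes passed. The 2 most abundant members of each had log2 fold changes of 0.24 ± 0.11 for Tpt1, -0.11 ± 0.20 for Eif5a, -0.16 ± 0.15 for Dph3, -0.06 ± 0.25 for Dohh, -0.17 ± 0.17 for Gfm1, -0.08 ± 0.22 for Tufm, -0.02 ± 0.24 for Eprs and -0.10 ± 0.28 for Aimp2.

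Across the 11 libraries, log2 levels of Eef1a1 and Eef1a2 correlated with Pearson r = 0.94, Eef1a1 and Eef2 with r = 0.93, and Eef1a1 and Eef2k with r = -0.92. Eef1a1 and Eef1g had r = -0.36. These are descriptions over libraries that fall into a knockout and a wild-type cluster and share their scaling. The genes most like Eef1a1 among 2519 compared were Rpl23, Cct4, Igf2, Ankrd1 and Rpl36a (r of 0.98 to 0.99), and among the most opposite were Ibtk and Hfe2 (r of -0.99). The genes most like Eef1a2 were Ddb1, Gdi2, Psmb1, Cox8a and Phb2 (r of 0.97 to 0.98), and the most opposite were Trdn, Epb41 and Ipo13 (r of -0.97 to -0.98).

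Markers of developing or regenerating fibres rose in the same libraries. All 5 tested markers (Myh3, Myh8, Myog, Myod1 and Ncam1) rose in both knockouts by edgeR, and the summed level of the 7 listed markers was 277 to 325 CPM in double knockouts and 182 to 203 CPM in Raptor knockouts, against 24.7 to 31.1 CPM in wild types, where Mymk was at 0. Of 7 fibroblast markers, 5 rose in double knockouts and 3 in Raptor knockouts, with summed levels of 1076 to 1259 CPM and 960.1 to 1073 CPM, against 605 to 936 CPM in wild types. Of 5 tested macrophage and leukocyte markers, 2 rose in each knockout, with summed levels of 96.8 to 134 CPM and 73.4 to 155 CPM, against 47.2 to 104 CPM in wild types. Of 4 tested mural markers, 1 rose in each knockout by edgeR, and in Raptor knockouts DESeq2 and limma called 0. For these counts, the shares over all tested genes by edgeR were 13% higher and 13.7% lower in double knockouts. They were 8.73% higher and 9.43% lower in Raptor knockouts. By edgeR, DESeq2 and limma, 0 satellite cell, 0 endothelial and 0 Schwann cell markers were called in either knockout against wild type. Of these lists edgeR tested only 2, 5 and 4 markers. At an unadjusted p under 0.05 edgeR had 1 endothelial marker, lower in double knockouts, and 0 of the others. At that threshold 3985 of the 10505 tested genes passed in double knockouts and 3333 in Raptor knockouts. The part of these cell types in the levels of the elongation factors was not tested.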

How the data were processed

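Libraries from 450 ng of total RNA were processed on GRCm38 (mm10); the tools named in the submitters' processing notes are RSEM 1.3.3, STAR 2.7.0 and fastp 0.20.0. The authors deposited expected counts per gene, not normalized, and a table of TPM per library. The strand setting and annotation release are not given in the sources used here; GENCODE M21 was used for positions. In all, 6 columns of the tables matched no sample and were not used. Replicates are separate samples by their titles, numbered in the order of the records.

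Expected counts were rounded (2.25% of values were not whole). Genes were filtered with filterByExpr and scaled by TMM in edgeR 4.0.16 (R 4.3.3), and tested by the robust quasi-likelihood F test over all 11 libraries without covariates (10505 genes, 99.54% of the counts, 8 residual degrees of freedom, biological coefficient of variation 20.6%). The SE of a log2 fold change is its size over the square root of F. The paralog ratio used unrounded counts and exact permutation tests (scipy 1.17.1). DESeq2 1.42.0, and limma 3.58.1 on log2(TPM + 1) or log2(TPM + 0.1) with mean TPM of at least 1, were alternatives, with those in the closing section. Copies were sought with blastn 2.17.0 (at least 90% identity over 200 bases). The edgeR step was also run on data simulated from the wild-type means and the fitted dispersions, and the outcome is not given here. No libraries of the same genotype were repeats of each other (lowest chi-square per degree of freedom 3.04), and pairs across genotypes were not compared.

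The members and the lists of related genes and markers were chosen with earlier results of these data known. All 8 members are named; from each related list up to 4 genes with the smallest adjusted p are named, or, where none passed, the 2 most abundant by mean CPM. Genes most like a member had a mean log2 CPM of at least 5.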

Additional observations from a re-analysis of the deposited data

Results flagged for a closer look

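Of 18 sets of 4 libraries examined (the 8 genes and the paralog ratio in double knockouts and in wild types), 1 held a library far from the others. Eef1e1 was at 11.6 CPM in double knockout replicate 2, while the other 3 double knockouts lay between 5.23 and 5.37 CPM, so that the gap made up 0.978 of the range of the group. Chance sets apart a library in about 1 in 20 such groups.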

How the results depend on the processing

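Of the 30 results, the calls of Eef1a1, Eef1a2 and Eef2 against wild type held in all 14 alternative settings and in all 11 fits that left out a library, for both knockouts. The number of the 8 genes called in double knockouts was 5 to 6 on leaving out a library, and 3 with only the libraries without Xist, where 1 double knockout library is left, it is assumed to vary like the other groups, and Eef1b2 (0.63, edgeR adjusted p = 0.12) and Eef2k (-0.71, edgeR adjusted p = 0.206) were lost. In Raptor knockouts the number was 3 to 5 on leaving out a library, and 3 by limma on TPM without a filter. The cause was not tested. Eef2k in double knockouts missed the threshold in the 3 fits on TPM as well. Eef1b2 in Raptor knockouts held in 7 of 14 settings and 4 of 11 fits without a library (adjusted p of 0.00907 to 0.180 over the settings). Eef1d in double knockouts was called with library totals (0.43, edgeR adjusted p = 0.0192) and in 2 of the 3 fits on TPM.

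Small differences changed sign. With library totals, which moved the median log2 fold change of all genes to 0.25 in double knockouts and 0.20 in Raptor knockouts, Eef1g was at 0.19 and 0.089 in double and Raptor knockouts, Eef1e1 at 0.078 in double knockouts, and Eef1a2 at 0.021 between knockouts. With the run as a covariate, and without the smaller run, Eef1g in double knockouts was at 0.039 and 0.037, Eef1e1 at 0.17 and 0.17, and Eef1a2 between knockouts at 0.047 and 0.046. On TPM with a pseudocount of 1, with or without a filter, and of 0.1, Eef1g in double knockouts was at 0.11 and Eef1a2 between knockouts at 0.036. Fitting only the groups compared put Eef1a2 between knockouts at 0.0015. With Xist as a covariate, Eef1a1, Eef1a2 and Eef2k between knockouts were at -0.099, 0.088 and 0.0049, and with only the libraries without Xist at -0.079, 0.073 and 0.070, where the paralog ratio differed by -0.15. Leaving out a library put Eef1g in double knockouts between -0.090 and 0.019, Eef1e1 in Raptor knockouts between -0.074 and 0.38, and Eef1a2 between knockouts between -0.079 and 0.057.

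The difference in the log2 paralog ratio lay between 1.35 and 1.59 in double knockouts and between 1.17 and 1.41 in Raptor knockouts on leaving out a library. Over all genes, calls higher and lower in double knockouts were 1367 and 1435, against 2421 and 844 with library totals, 1766 and 779 by limma on TPM, 881 and 966 with Xist as a covariate and 238 and 234 with only the libraries without Xist. In Raptor knockouts they were 917 and 991, against 1638 and 573 with library totals and 1031 and 519 by limma on TPM. Between knockouts they were 1 and 2, against 65 and 92 with only the groups compared, 44 and 61 without a filter, 52 and 49 by DESeq2, and 3 and 6 by limma on TPM without a filter. Without wild-type replicate 4 they were 1203 and 1210 in Raptor knockouts and 1655 and 1689 in double knockouts. No paired analysis was possible because the labels name no pairing of the mice. Depth limits Eef1e1 and Eef2k most, since they had the fewest counts of the 8 genes.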
